A study of Rattus norvegicus with 6 samples.

Results

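The genes described here are the G1 cyclins and the inhibitors of their kinases, 10 of the 30560 genes in the deposited table, taken by symbol: Ccnd1, Ccnd2, Ccnd3, Ccne1, Ccne2, Cdkn1a, Cdkn1b, Cdkn1c, Cdkn2b and Cdkn2c. They were measured by RNA sequencing in primary cardiac fibroblasts (NRCFs) from the ventricles of newborn Sprague-Dawley rats aged 1 to 2 days, grown to partial confluence, kept overnight in medium without serum and transfected. In 3 libraries the cells had received 50 nM of an antagomiR against miR-142-3p, a modified antisense oligonucleotide that binds the mature microRNA, and in 3 libraries the same amount of a negative control oligonucleotide (NC). The labels describe a knockdown by oligonucleotide in a mixed primary culture enriched by attachment, not a deletion or a clonal line, and they leave unsaid whether each library is an isolation of its own, so the p-values reflect the spread among these libraries, which may be technical. The time between transfection and harvest was not given in the sources used here.

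Cells in G1 phase commit to DNA synthesis when cyclin-dependent kinases (CDKs) phosphorylate the retinoblastoma proteins and thereby release E2F transcription factors. D-type cyclins activate CDK4 and CDK6 in answer to growth signals, and E-type cyclins, which are themselves E2F targets, activate CDK2 at the entry to S phase. The INK4 inhibitors bind CDK4 and CDK6, whereas the Cip/Kip inhibitors bind a wider range of cyclin-CDK complexes. Cardiac fibroblasts are a proliferating cell type of the heart in the days after birth, and withdrawal of serum is a common means of holding cultured fibroblasts in G1.

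The mature microRNA against which the antagomiR was directed is shown to define the treatment, as RefSeq gives it (GRCr8, chr10:73055155-73055177, plus strand), with the seed, bases 2 to 8, in capitals.
rno-miR-142-3p: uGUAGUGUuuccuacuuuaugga
Libraries enriched for polyadenylated RNA do not measure it. Its precursor gene Mir142 had 2.84, 1.83 and 3.15 FPKM (fragments scaled to gene length and to the size of the library) in antagomiR replicates 1, 2 and 3, from 7, 5 and 8 fragments. In NC replicates 1, 2 and 3 it had 2.78, 1.11 and 1.37 FPKM, from 6, 3 and 3 fragments. The groups overlapped, and these values do not check whether mature miR-142-3p was blocked.

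Libraries held 19472409 to 24622667 fragments, recovered from the FPKM values, and for a gene 1 kb long 3 fragments equal 0.122 to 0.154 FPKM, which allows for counting error alone. All 13 cardiac fibroblast markers were detected, with a summed FPKM, carried mostly by collagens and Fn1, of 15338 to 15679 in antagomiR and 15770 to 16071 in NC libraries. Of these markers 7 rose, against 17.5% of all tested genes, 3 fell, against 9.21%, and 3 were not called. Pdgfra and Dcn were among those that rose, at 27.5 and 33.4 FPKM with the antagomiR and 8.53 and 12.3 FPKM in NC. Those that fell were Col1a2, Vim and Thy1, at 2731, 1240 and 34.0 FPKM with the antagomiR and 3386, 1511 and 47.7 FPKM in NC. Of 6 tested myofibroblast and smooth muscle markers 5 fell (list median -0.69 on the log2 scale), against 9.21% of all tested genes. Among them were the contractile genes Acta2, at 1795 FPKM with the antagomiR and 2959 FPKM in NC, and Tagln and Cnn1. The part of these shifts in the changes of the G1 genes was not tested. Of 9 endothelial markers, Emcn was listed at 0 and Pecam1, Cdh5, Kdr and Vwf stayed at or below 0.276 FPKM in each library. At these low levels Pecam1 and Cdh5 were higher in each antagomiR library than in any NC library, while Kdr and Vwf overlapped. Tie1, not tested, overlapped too, at 0.604 FPKM on average with the antagomiR and 0.492 FPKM in NC. Of the 3 tested, Tek rose, Erg fell, at 4.56 FPKM with the antagomiR and 7.93 FPKM in NC, and Egfl7 was not called. Over 16 leukocyte and macrophage markers the summed FPKM was 1121, 1005 and 1061 in antagomiR replicates 1 to 3 and 151, 224 and 770 in NC replicates 1 to 3. NC replicate 3 thus stood apart from its group, with 15 of the 16 markers above both other NC libraries and the remaining one, Cd163, listed at 0 there. Of 15 tested leukocyte markers 7 rose, against 17.5% of all tested genes, and 8 were not called. The largest rise was that of Adgre1, a macrophage receptor, at 54.96, 59.3 and 63.3 FPKM with the antagomiR. Its NC values were 1.30, 3.37 and 11.4 FPKM in replicates 1 to 3. Mrc1 and C1qa, not called, averaged 3.97 and 6.44 FPKM with the antagomiR and 4.21 and 6.37 FPKM in NC.

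The comparison of antagomiR with NC asks which members of the G1 machinery differed when miR-142-3p was targeted. E-type cyclins, the Cip/Kip inhibitors and the INK4 gene Cdkn2c were higher with the antagomiR, the INK4 gene Cdkn2b was lower, and the 3 D-type cyclins did not pass the test. The average over the 6 libraries reached 1 FPKM for all 10 members, which were therefore tested with limma on log2(FPKM + 1), two-sided, with p-values adjusted by the Benjamini-Hochberg method over 12024 genes. At an adjusted p under 0.05, 6 members rose, against 17.5% of all tested genes, and 1 fell, against 9.21%, so that 7 changed, against 26.7%. The groups did not overlap for 9 members, against 44.6% of all tested genes, with antagomiR above NC for 6 (29.2%) and below for 3 (15.4%). The median log2 fold change was 0.22 over the members and 0.06 over all tested genes. Cdkn1c passed the filter only through its level with the antagomiR, since its NC mean was under 1 FPKM; of the 9 others, 5 rose and 1 fell. In bulk RNA, a change in the number of cells of a type cannot be told apart from a change in RNA per cell, and cultures with more leukocyte RNA are included here. NC replicate 3 lay beyond the other NC libraries toward the antagomiR for 5 members, Ccnd1, Cdkn1a, Cdkn1b, Cdkn1c and Cdkn2c. It lay between the other NC libraries for 4 members and away from the antagomiR for 1. The part of leukocyte RNA in these positions was not tested.

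**Figure D1:**
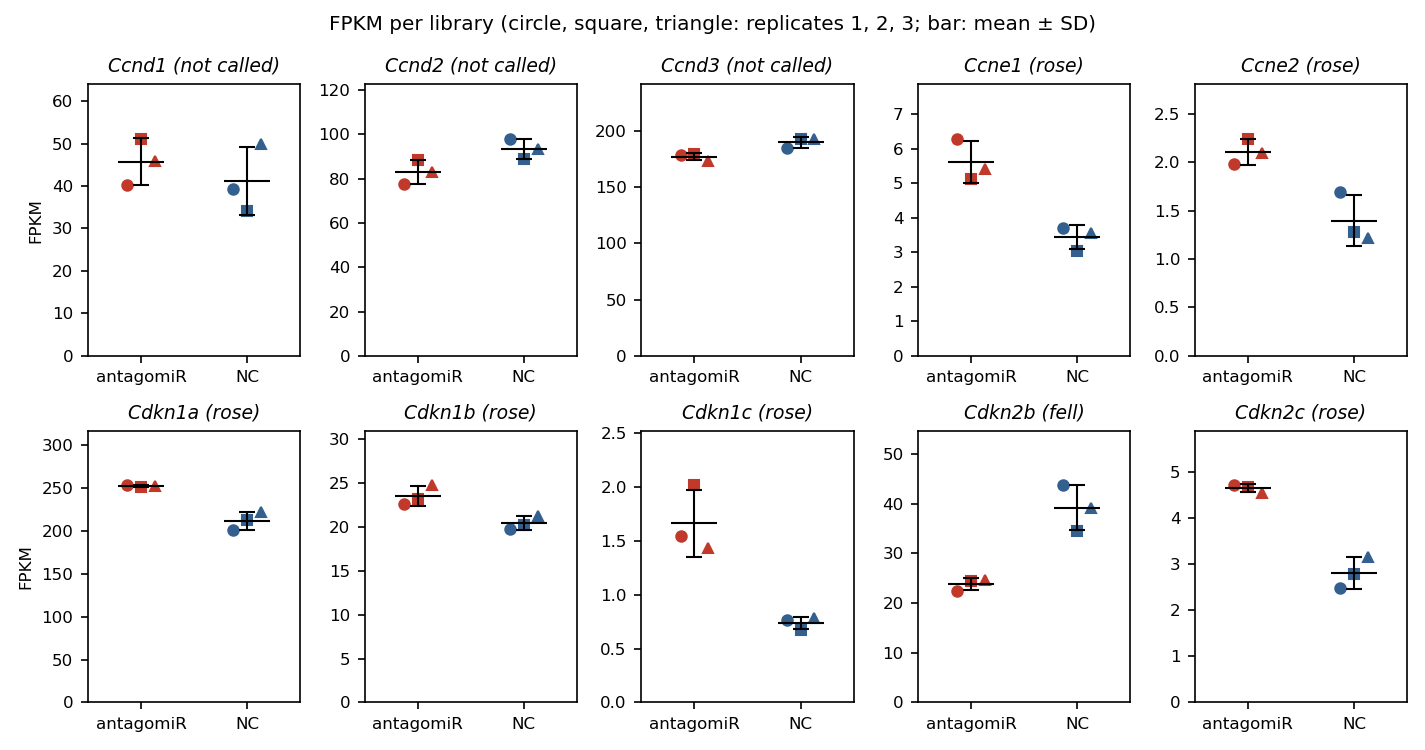
FPKM (linear axes from 0, a separate scale for each gene) of the 10 genes in antagomiR (red, left) and NC libraries (blue, right), with circles, squares and triangles for replicates 1, 2 and 3 and bars for the mean ± SD (n = 3). The groups are separate for 9 of the 10 genes and overlap for Ccnd1, whose highest NC value is replicate 3 at 49.8 FPKM.

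The 10 genes covered a wide range of levels, which FPKM allows to be compared per length. With the antagomiR the order of the means was Cdkn1a at 252 FPKM, Ccnd3 at 177, Ccnd2 at 83.0, Ccnd1 at 45.8, Cdkn2b at 23.8, Cdkn1b at 23.5, Ccne1 at 5.61, Cdkn2c at 4.65, Ccne2 at 2.10 and Cdkn1c at 1.66 FPKM. In NC the order was the same, at 212, 189.8, 93.4, 41.1, 39.2, 20.4, 3.43, 2.81, 1.40 and 0.738 FPKM. Neighbours whose library values overlapped were Cdkn2b and Cdkn1b, and Ccne2 and Cdkn1c, with the antagomiR, and Ccnd1 and Cdkn2b, and Ccne1 and Cdkn2c, in NC. Cdkn1a was thus the most abundant of these transcripts and Cdkn1c the least abundant by mean in both groups.

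The D-type cyclins carry growth signals to CDK4 and CDK6, and their transcripts were abundant in both groups. Ccnd3 had 178, 179 and 173 FPKM in antagomiR replicates 1 to 3, against 184, 193 and 192 FPKM in NC replicates 1 to 3. Each antagomiR value lay below each NC value, but the log2 fold change was small, at -0.10 ± 0.05 (SE; limma adjusted p = 0.171). Ccnd2 had 77.7, 88.5 and 82.8 FPKM with the antagomiR and 97.9, 88.8 and 93.3 FPKM in NC. Here too the groups did not overlap, by a narrow margin, with a log2 fold change of -0.17 ± 0.07 (SE) and a limma adjusted p of 0.104. Ccnd2 and Ccnd3 passed the threshold after median-ratio scaling, at -0.24 (adjusted p = 0.0349) and -0.17 (adjusted p = 0.0486).

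Ccnd1, a D-type cyclin much studied for its answer to mitogens, had 40.3, 51.1 and 45.9 FPKM with the antagomiR. Its NC values were 39.3, 34.1 and 49.8 FPKM, so the groups overlapped. The log2 fold change was 0.16, with a 95% interval of -0.18 to 0.50 (limma adjusted p = 0.455). Without NC replicate 3 the value was 0.31 (adjusted p = 0.0510). In that library Ccnd1 and the leukocyte markers were both above the other NC libraries, and the part of these markers in the Ccnd1 level was not tested. The sum of the 3 D-type cyclins was 306 ± 11.6 FPKM with the antagomiR and 324 ± 10.2 FPKM in NC (SD, n = 3), of which Ccnd3 made up 57.9% ± 2.04 and 58.6% ± 2.15.

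The E-type cyclins activate CDK2 and were both higher with the antagomiR, at levels far under those of the D-type genes. Ccne1 (chromosome 1, 90781949 to 90791101 in mRatBN7.2) had 6.29, 5.13 and 5.42 FPKM in antagomiR replicates 1 to 3 and 3.71, 3.04 and 3.56 FPKM in NC replicates 1 to 3. These values rest on 273, 247 and 242 fragments with the antagomiR and 141, 144 and 137 fragments in NC. The groups were well apart, and NC replicate 3 lay between the other NC libraries. The ratio of the means was 1.63, and the log2 fold change 0.58 ± 0.10 (SE; limma adjusted p = 0.00545). Ccne1 kept its call in each of 16 alternative fits, with adjusted p between 0.00384 and 0.0250.

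Ccne2, the paralogue of Ccne1 with the same kinase partner, had 1.98, 2.24 and 2.09 FPKM with the antagomiR and 1.70, 1.28 and 1.21 FPKM in NC. These rest on 125, 157 and 136 fragments with the antagomiR and 94, 88 and 68 fragments in NC, and the groups did not overlap. Its log2 fold change was 0.38 ± 0.11 (SE; limma adjusted p = 0.0375). The call was lost in 8 of 16 alternative fits, among them quantile normalization (adjusted p = 0.161) and the fits without antagomiR replicate 1, 2 or 3 or NC replicate 2 (adjusted p = 0.0886, 0.127, 0.116 and 0.115). Ccne2 overlaps the end of Ints8 in the table, and with no strand setting stated, fragments of the shared stretch cannot be told apart. Ccne1 made up 72.6% ± 3.26 of the E-type cyclin FPKM with the antagomiR and 71.2% ± 3.06 in NC (SD, n = 3), so the ratio of the paralogues differed by less than the spread between libraries.

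The Cip/Kip inhibitors all rose, although by different amounts. Cdkn1a encodes p21, which restrains cyclin-CDK complexes. It had 253, 251 and 253 FPKM in antagomiR replicates 1 to 3, against 201, 213 and 221 FPKM in NC replicates 1 to 3. The antagomiR libraries were almost identical and above all NC libraries, with NC replicate 3 the nearest to them. The log2 fold change was 0.25 ± 0.05 (SE; limma adjusted p = 0.0143), a ratio of means of 1.19. Cdkn1a kept its call in 11 of 17 alternative fits. The call was lost with replicate numbers taken as a block and after median-ratio scaling, at 0.19 (adjusted p = 0.0507) in the latter. It was also lost without antagomiR replicate 1, 2 or 3 or NC replicate 2 (adjusted p = 0.0609, 0.0586, 0.0720 and 0.0520), with log2 fold changes of 0.25 to 0.26 in these last 4 fits.

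Cdkn1b encodes p27, an inhibitor that accumulates in quiescent cells largely through control of its translation and breakdown. Its transcript had 22.6, 23.2 and 24.8 FPKM with the antagomiR and 19.7, 20.3 and 21.3 FPKM in NC. The groups did not overlap, and the difference was small, at a log2 fold change of 0.19 ± 0.06 (SE; limma adjusted p = 0.0465). It kept its call in 5 of 17 alternative fits. The call was lost with voom on recovered fragments (adjusted p = 0.0532), after median-ratio scaling and quantile normalization (0.13 and 0.12, with adjusted p = 0.151 and 0.158), and without antagomiR replicate 1, 2 or 3 or NC replicate 1 or 2 (adjusted p = 0.0827, 0.117, 0.182, 0.107 and 0.127).

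Cdkn1c encodes p57, an imprinted inhibitor with roles in developmental cell cycle exit. It had 1.54, 2.01 and 1.43 FPKM with the antagomiR, from 67, 97 and 64 fragments, and 0.761, 0.675 and 0.779 FPKM in NC, from 29, 32 and 30 fragments. The lowest antagomiR library held more than the highest NC library by a clear margin, and the ratio of the means, 2.25, was the highest of the 10 genes. The log2 fold change was 0.61 ± 0.11 (SE; limma adjusted p = 0.00764) with a pseudocount of 1, which understates the change of a gene at this level, and 1.06 with a pseudocount of 0.1. With a minimum of 0.1 FPKM, which both groups exceeded, the adjusted p was 0.00663. The share of Cdkn1c in the Cip/Kip FPKM remained low, at 0.599% ± 0.114 with the antagomiR and 0.318% ± 0.0277 in NC (SD, n = 3), whereas Cdkn1a held 90.9% in both.

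The 2 INK4 genes moved in opposite directions. Cdkn2b encodes p15, known as a transcript that TGF-beta induces in epithelial cells. Its gene spans 104010680 to 104019050 of chromosome 5 in mRatBN7.2. It had 22.4, 24.4 and 24.7 FPKM in antagomiR replicates 1 to 3, against 43.7, 34.6 and 39.2 FPKM in NC replicates 1 to 3. The fragments behind these values numbered 793, 959 and 899 with the antagomiR and 1356, 1336 and 1231 in NC. All antagomiR libraries were below all NC libraries. The log2 fold change was -0.69 ± 0.09 (SE; limma adjusted p = 0.00187), and the antagomiR mean was 0.609 times the NC mean. Cdkn2b kept its call in all 17 alternative fits, with log2 fold changes of -0.77 to -0.61. For Cdkn2b NC replicate 3 lay between the other NC libraries, and the part of leukocyte RNA in the difference was not tested.

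Cdkn2a, the neighbour of Cdkn2b on chromosome 5 (103984949 to 104003149), is given here because of its place and was chosen after its values were seen. It had 15.8, 16.1 and 18.0 FPKM with the antagomiR and 15.95, 16.9 and 28.1 FPKM in NC, so the groups overlapped (log2 fold change -0.23, limma adjusted p = 0.432). The difference between the changes of these neighbours was not tested.

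Cdkn2c encodes p18, an INK4 inhibitor whose gene lies elsewhere on chromosome 5 (124411124 to 124416278). It had 4.72, 4.68 and 4.55 FPKM with the antagomiR, from 150, 165 and 149 fragments, and 2.47, 2.79 and 3.15 FPKM in NC, from 69, 97 and 89 fragments. The antagomiR libraries lay close together and above all NC libraries. The log2 fold change was 0.57 ± 0.09 (SE; limma adjusted p = 0.00336), a ratio of means of 1.66, and the call held in all 16 alternative fits. The sum of Cdkn2b and Cdkn2c was 28.5 ± 1.19 FPKM with the antagomiR and 41.96 ± 4.42 FPKM in NC (SD, n = 3). Of that sum Cdkn2c made up 17.4%, 16.1% and 15.6% in antagomiR replicates 1 to 3 and 5.36%, 7.48% and 7.45% in NC replicates 1 to 3. The INK4 genes Cdkn2a and Cdkn2d are not in that sum. They averaged 16.6 and 6.02 FPKM with the antagomiR and 20.3 and 9.20 FPKM in NC.

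**Figure D2:**
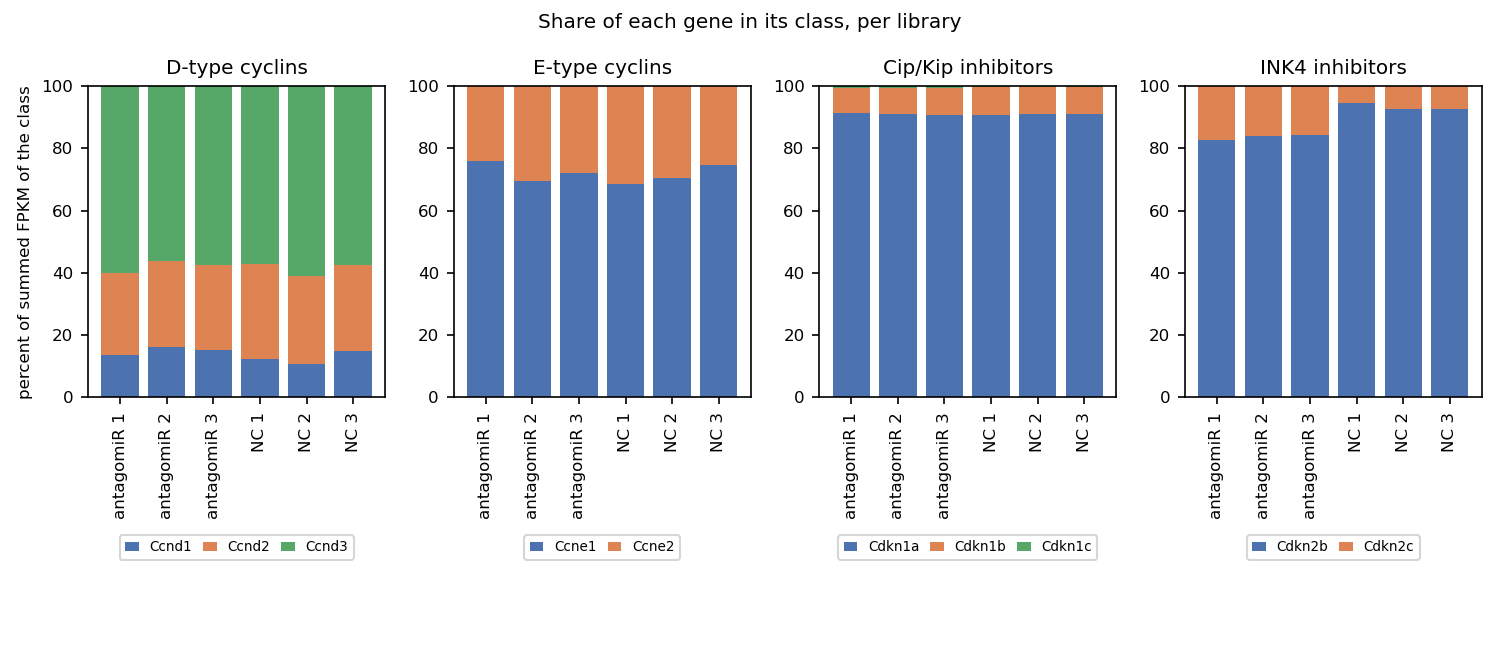
Percent of the summed FPKM of each class held by each gene, in antagomiR libraries (left) and NC libraries (right). The share of Cdkn2c in the sum of Cdkn2b and Cdkn2c was 16.3% on average with the antagomiR and 6.76% in NC. Cdkn2a and Cdkn2d are not in the INK4 class shown. Ccnd3 and Ccne1 held similar shares of their classes in both groups.

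**Figure D3:**
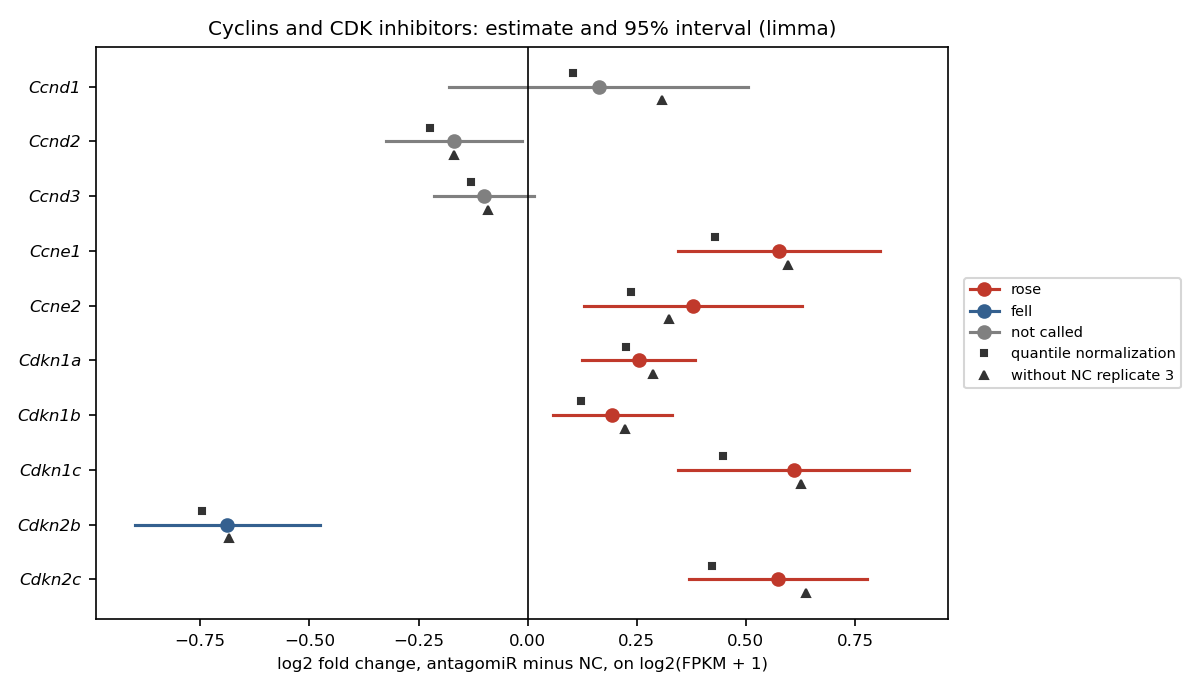
Log2 fold change (antagomiR minus NC, on log2(FPKM + 1)) of each gene with its 95% interval from limma, red for rose, blue for fell and grey for not called; squares are values after quantile normalization and triangles values without NC replicate 3. No gene changes sign under either alternative, and Cdkn2b is the only one called below 0.

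Promoter sequences are shown for the 3 genes that kept their calls in every fit that tested them and have a window in the RefSeq table, Ccne1, Cdkn2c and Cdkn2b. Windows were found for 6 of the 10 members, Ccnd3, Cdkn1a and Cdkn1b being the others. Each window runs from 250 bases before the annotated gene start to 50 after it in GRCr8, on the strand of the gene. Capitals mark GC boxes (GGGCGG on either strand) in Ccne1 and Cdkn2b and an E2F-type heptamer in Cdkn2c.
Ccne1 (chr1:99927860-99928159, minus strand): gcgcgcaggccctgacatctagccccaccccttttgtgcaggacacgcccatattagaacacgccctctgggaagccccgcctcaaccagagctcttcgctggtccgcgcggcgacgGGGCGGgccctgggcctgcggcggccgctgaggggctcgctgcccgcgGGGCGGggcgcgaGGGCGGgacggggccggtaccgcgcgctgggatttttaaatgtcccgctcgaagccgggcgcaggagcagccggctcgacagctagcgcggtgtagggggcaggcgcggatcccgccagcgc
Cdkn2c (chr5:129644842-129645141, minus strand): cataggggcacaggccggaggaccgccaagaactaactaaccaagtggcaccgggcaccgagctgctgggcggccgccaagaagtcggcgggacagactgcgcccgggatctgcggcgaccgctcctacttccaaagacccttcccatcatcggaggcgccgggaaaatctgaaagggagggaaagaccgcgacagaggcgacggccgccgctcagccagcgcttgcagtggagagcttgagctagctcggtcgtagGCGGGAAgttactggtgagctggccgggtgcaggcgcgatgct
Cdkn2b (chr5:109134806-109135105, minus strand): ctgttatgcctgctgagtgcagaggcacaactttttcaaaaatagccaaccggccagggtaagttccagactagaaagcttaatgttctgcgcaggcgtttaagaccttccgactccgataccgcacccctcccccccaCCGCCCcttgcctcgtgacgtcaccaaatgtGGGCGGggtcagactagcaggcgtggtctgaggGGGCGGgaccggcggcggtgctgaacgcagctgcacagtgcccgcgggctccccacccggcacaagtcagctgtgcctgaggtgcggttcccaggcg

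An E2F-type heptamer was sought on both strands in 4 forms, and 9.52% of 33469 promoter windows hold at least 1 of them. The form TTCCCGC was found in Cdkn2c, 7 bases after the gene start, and the form TTGCCGC in Cdkn1b, 29 bases after it. The other forms were TTGGCGC as well as TTCGCGC, and no match in these windows overlapped one of another motif. Ccne1, Cdkn2b, Cdkn1a and Ccnd3 have no match in these windows, which says only that these letters are not there. GC boxes occur in 33.1% of windows, and Ccne1, Cdkn2b and Ccnd3 have 3 each. The Ccne1 window was 73.3% G or C and the Cdkn1a window 56.7%, against a median of 51.7% over all windows. Ccne1, which rose, and Cdkn2b, which fell, thus have 3 GC boxes each, and a match is a description and not a site of binding.

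The other genes of the pathway were taken from 8 lists. Of 7 tested kinases and activators of G1, 5 were not called and 2 rose, against 17.5% of all tested genes. Their median log2 fold change was 0.12, against 0.06 over all tested genes. Cdk2, the partner of the E-type cyclins, had 5.65, 6.09 and 6.41 FPKM with the antagomiR and 4.19, 3.67 and 4.49 FPKM in NC (log2 fold change 0.46, limma adjusted p = 0.00800). Cdc25a, a phosphatase that activates CDK2, had 9.35, 9.47 and 10.7 FPKM with the antagomiR and 7.37, 7.02 and 6.79 FPKM in NC (0.42, limma adjusted p = 0.00531). The groups were separate for both genes.

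The kinase partners of the D-type cyclins did not pass the test. Cdk4 had 66.2 ± 0.133 FPKM with the antagomiR and 61.0 ± 6.41 FPKM in NC (limma adjusted p = 0.289), and Cdk6 had 11.5 ± 0.204 and 8.62 ± 1.61 FPKM (SD, n = 3; limma adjusted p = 0.0520). Without NC replicate 3, Cdk4 and Cdk6 were called, at log2 fold changes of 0.20 and 0.25 (adjusted p = 0.00645 and 0.0163), and Cdk7, which activates other CDKs, was called at -0.26 against -0.18 with all libraries. Without NC replicate 1, Cdk6 was called at 0.50 (adjusted p = 0.0230). Ccnh and Mnat1, the subunits that join Cdk7, had log2 fold changes of -0.22 and 0.07 and were not called.

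The retinoblastoma proteins and E2F factors stand directly downstream of the cyclins. Rbl1, which encodes p107 and is itself an E2F target, had 4.29, 4.39 and 4.31 FPKM with the antagomiR and 2.60, 2.19 and 2.23 FPKM in NC (log2 fold change 0.68, limma adjusted p = 0.00114). Rbl2, which encodes p130, rose by 0.27 (adjusted p = 0.0400), a call lost without antagomiR replicate 1, 2 or 3 or NC replicate 2 (adjusted p = 0.107, 0.123, 0.122 and 0.111) and after median-ratio scaling or quantile normalization (adjusted p = 0.0909 and 0.189). With no filter, and with replicate numbers taken as a block, only 1 gene of the family was called as risen. Rb1 was the third tested gene of the family and was not called. Of 7 tested E2F and DP genes 3 rose, against 17.5% of all tested genes. These were E2f2 by 0.82, the repressor E2f6 by 0.35 and Tfdp2, a DP partner, by 0.46 (limma adjusted p = 0.00334, 0.00229 and 0.00726). E2f2 was low, at 1.81 ± 0.187 FPKM with the antagomiR and 0.6001 ± 0.199 FPKM in NC (SD, n = 3), and passed the filter only through the antagomiR libraries.

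Genes downstream of G1 were higher with the antagomiR. Of 19 tested E2F-regulated S phase genes, 18 rose and 1 was not called, with a median log2 fold change of 0.57, against 17.5% risen and a median of 0.06 over all tested genes. The helicase subunit Mcm5 had 9.62, 9.26 and 10.3 FPKM with the antagomiR and 3.00, 3.54 and 3.60 FPKM in NC, the largest change of the list at 1.29. Rrm2, a subunit of ribonucleotide reductase, averaged 13.4 FPKM with the antagomiR and 6.12 FPKM in NC. Mcm7 rose by 0.95 and Uhrf1, which maintains DNA methylation, by 0.82. Without NC replicate 3 all 19 rose, without NC replicate 2 15 rose, and without antagomiR replicate 1, 2 or 3 the counts were 14, 14 and 15 of 18 tested. Hells, at 1.39 FPKM with the antagomiR and 0.707 FPKM in NC, passed the filter only through the antagomiR libraries and is counted among the 18. The summed leukocyte markers were also higher with the antagomiR, and their part in these changes was not tested. Among 9 cyclins and kinases of S, G2 and M phase, 4 were not called and 5 rose, against 17.5% of all tested genes. They included Ccnf, at 2.11 ± 0.125 FPKM with the antagomiR and 0.801 ± 0.0588 FPKM in NC (SD, n = 3), which passed the filter only through the antagomiR libraries, Pkmyt1, an inhibitory kinase of CDK1, by 0.63, Ccna2 by 0.52 and Ccnb1 by 0.43.

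Regulators of the inhibitors moved in both directions. Of 10 tested genes in a list of inducers and repressors of the members, 4 rose, against 17.5% of all tested genes, and 2 fell, against 9.21%. The median log2 fold change of the list was 0.09, against 0.06 over all tested genes. Those that rose were Cebpb by 1.12, Mybl2, a cell cycle factor, by 0.75, Foxo3, which can induce Cdkn1b, by 0.64, and Smad3, which carries TGF-beta signals to Cdkn2b in other cells, by 0.60 (limma adjusted p = 0.00220, 0.00302, 0.000790 and 0.000639). Smad3 had 12.3, 12.5 and 11.4 FPKM with the antagomiR and 7.85, 7.63 and 7.46 FPKM in NC. It was thus higher in the libraries in which Cdkn2b was lower. The 2 genes that fell were Foxo1, which like Foxo3 can induce Cdkn1b, at 4.47 FPKM with the antagomiR and 5.77 FPKM in NC (-0.30, limma adjusted p = 0.0354), and Mycn, a paralogue of Myc, at 1.53 FPKM with the antagomiR and 2.11 FPKM in NC (-0.30, limma adjusted p = 0.0373). These falls were not called with no filter, with replicate numbers taken as a block, without any 1 antagomiR replicate or without NC replicate 1. Without NC replicate 2, 1 of them was not called.

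Of the other CDK inhibitors outside the 10, Cdkn2d, an INK4 gene that encodes p19, fell by 0.53 and Cdkn3, a CDK-associated phosphatase, by 0.48 (limma adjusted p = 0.0160 and 0.00944). Cdkn2d had 5.95, 6.01 and 6.09 FPKM with the antagomiR and 7.65, 8.94 and 11.0 FPKM in NC. Its call was lost without antagomiR replicate 1, 2 or 3 or NC replicate 2 (adjusted p = 0.0604, 0.0585, 0.0567 and 0.0522). Of 12 tested genes that govern the breakdown of G1 regulators, 11 were not called and 1 rose, against 17.5% of all tested genes. That gene was Dtl, the receptor by which a CUL4 ligase marks p21 for breakdown in S phase, at 2.46 ± 0.351 FPKM with the antagomiR and 1.47 ± 0.217 FPKM in NC (log2 fold change 0.49, limma adjusted p = 0.0192). The call of Dtl was lost without antagomiR replicate 1 or 2 or NC replicate 2 (adjusted p = 0.0789, 0.0788 and 0.0666) and after quantile normalization (adjusted p = 0.0734).

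**Figure D4:**
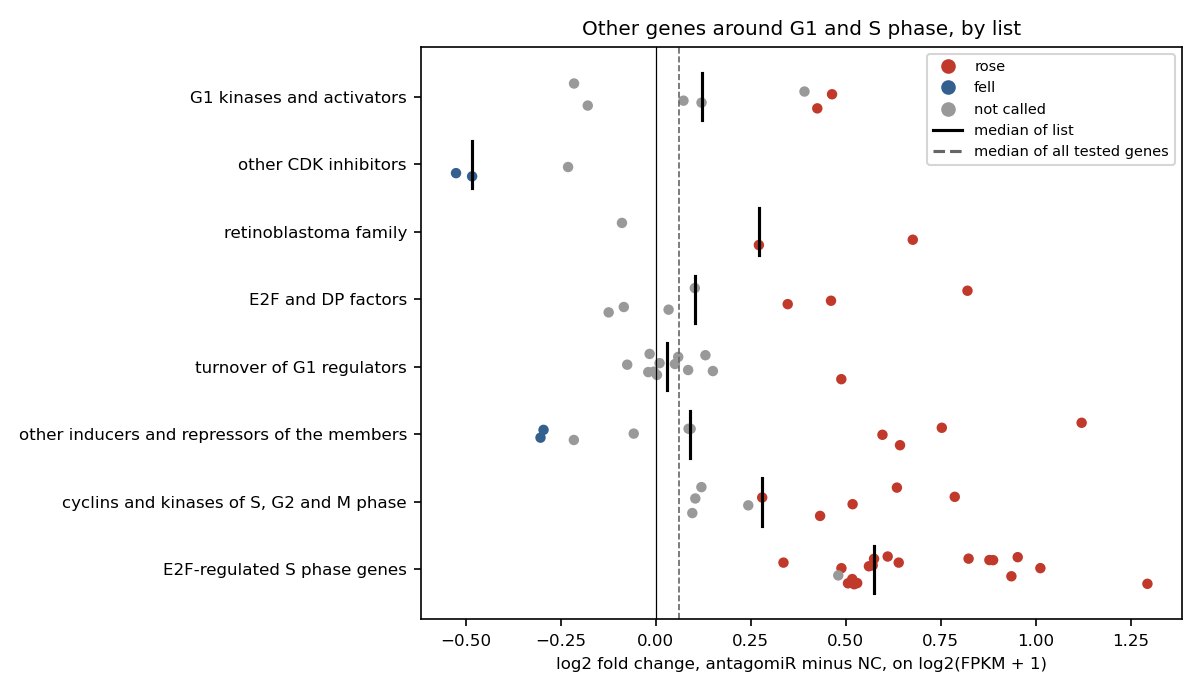
Log2 fold change (antagomiR minus NC, on log2(FPKM + 1)) of each tested gene in 8 lists around G1 and S phase; red points rose, blue points fell, grey points were not called, black ticks are list medians and the dashed line is the median of all tested genes, 0.06. The S phase genes lie above 0, with a median of 0.57. The list of inducers and repressors spreads on both sides, with 4 risen and 2 fallen of 10 tested, against 17.5% and 9.21% of all tested genes.

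The genes most like the members with the largest changes were sought by Pearson correlation of log2(FPKM + 1) over the 6 libraries, as a description, since any gene that separates the groups correlates with them. For Cdkn2b the nearest were Erg28 at r = 0.998, Cav2 at 0.996 and Cfl2 at 0.993, all of which fell. For Cdkn1c they were Galns, Snapc5 and Prkrip1, at r = 0.993, 0.993 and 0.992. In all, 354 tested genes had r above 0.95 with Cdkn2b and 373 with Cdkn1c.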

How the data were processed

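The deposited table held FPKM by the authors for 30560 genes, 1 column per library, with 0 columns of per-sample values unassigned. Per the labels' protocols, polyA-enriched RNA gave paired-end 150 bp reads. Per the submitters' processing notes, FastQC, cutadapt, HISAT2, HTSeq and edgeR were named, with the build mRatBN7.2; no source used here gives their order, the annotation release or whether strand was counted. Overlapping genes and close copies can therefore share fragments.

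Library totals and gene lengths that made all 6 values whole within 0.01 were found for 100% of 20134 genes above 0. Replicate libraries differed by more than sampling noise (chi-square of their counts divided by its degrees of freedom, 3.82 to 35.2), so each counted once. limma 3.58.1 (R 4.3.3; lmFit, eBayes with a trend) was run on log2(FPKM + 1), leaving out genes whose mean was under 1 FPKM, and tested on simulated data. Fold changes are antagomiR minus NC, called at an adjusted p under 0.05. Promoter and microRNA sequences are from RefSeq (GRCr8). Alternatives are given in the closing section.

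The members and lists were chosen with earlier results of these data known. Named genes are the 10 members, Mir142, up to 4 called genes with the smallest p of each list, and all tested G1 kinases. The 3 genes most correlated with the highest and lowest called member, and the leukocyte markers Adgre1, Mrc1 and C1qa, are named as well. Cdkn2a, Rb1, Foxo1, Mycn, Hells, Cd163 and the fibroblast, myofibroblast and endothelial markers were named after their values were seen. The symbols Cdk3 and E2f1 were looked for and not found among the 30560 genes, so they were not analysed here. The symbol Cdt2 was not found either, but it is another name of Dtl, which is reported above. Of the lists, 1 is counted in the totals of the closing section and not reported here.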

Additional observations from a re-analysis of the deposited data

How the results depend on the processing

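No member changed sign in 17 alternative fits, and Ccne1, Cdkn1c, Cdkn2b and Cdkn2c kept their calls in each fit that tested them; a minimum of 5 FPKM removed all of these but Cdkn2b. Among pairs of a member and a setting, 138 stayed on their side of the threshold, called or not, 26 lost a call and 2 gained one. Of 6 risen members, a minimum of 5 FPKM left only Cdkn1a and Cdkn1b to be tested, and both remained called. Of the 6, 3 remained called after median-ratio scaling, 3 with the replicate block and 3 to 6 without 1 library. The members that fell after median-ratio scaling were Ccnd2, Ccnd3 and Cdkn2b, none of them among the 6. Over all genes, 1198 to 3200 rose and 668 to 1677 fell without 1 library, against 2109 and 1107, and 1869 fell with quantile-normalized values, whose median over all genes shifted by -0.11 (log2). Risen genes were 65.6% of calls, 51.5% with median-ratio scaling and 43.1% with quantile-normalized values. Over the lists 39 genes rose, and 25 with a minimum of 5 FPKM, which left fewer list genes to be tested. In the lists 8 genes fell, 4 with no filter, 2 with the replicate block and 1 to 10 without 1 library. Mnat1, not called, had a log2 fold change of -0.020 after quantile normalization. Deviations from the group means correlated at -0.16, -0.06 and -0.04 between equal replicate numbers and -0.06 to 0.13 between unequal ones, so the numbers are not taken to pair the libraries; no library correlated best with its own number. With the replicate block 1571 genes rose and 809 fell. Depth limits Cdkn1c and Ccne2 most, with 29 to 157 fragments a library. The cause was not tested.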
